A study of Mus musculus with 7 samples.

Results

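The genes described here encode proteins that set the poly(A) tail of messenger RNA, store messenger RNA in male germ cells and control its translation. They are 10 genes, Papolb, Cpeb1, Pabpc6, Pabpc2, Pabpc1, Paip2, Ybx2, Ybx1, Eif4g3 and Tarbp2, and were chosen by name. Each was read by 1 probe set, out of 33604 probe sets in the deposited table and 23493 with 1 gene symbol, which covered 22154 distinct symbols. The study put RNA from pooled mouse sperm on 7 expression arrays. TG3 was sperm of males that carried a KDM1A transgene, and nonTG3 was sperm of their littermates that had not inherited it. KDM1A is a histone lysine demethylase. The construct had been injected into C57BL/6 zygotes, which gave 2 transgenic founder females, and both kinds of male came from generation 3 of breeding heterozygous carrier males to C57BL/6 females. TG3 and nonTG3 had 3 arrays each, every one a pool of RNA from 4 males, and the third group was a single array of C57BL/6 sperm pooled from 5 males. The 6 arrays of TG3 and nonTG3 together are called the line. The promoter that drives the transgene, the founder from which each male descended and the ages of the males were not stated in the sources at hand.

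As background, a developing spermatid stops transcription while it still needs new proteins, because its chromatin is being repackaged. Messenger RNAs for those proteins are made earlier and held in an untranslated state by RNA-binding proteins, among them the Y-box proteins. They are released for translation later, when their poly(A) tails, poly(A)-binding proteins and cap-binding factors are engaged. Mature sperm is thought to carry remnants of this RNA and to translate little of it in its cytoplasm.

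Values are log2 intensities after RMA, an array method that corrects background, brings arrays to a common distribution and summarises probes into probe sets. Array medians over all probe sets lay between 3.52 and 3.61. A log2 difference of 1 is a doubling, and levels are compared here between arrays. Readings of different probe sets or lists are set side by side only as signal and never as amounts of RNA. Differences were tested with limma over all 23493 probe sets, and a difference passed at a Benjamini-Hochberg adjusted p under 0.05. The C57BL/6 array has no replicate, so its difference from the line rests on the spread among the line's arrays, and strain stock, pool and array cannot be told apart. Nothing in the labels excludes a male from contributing to several pools, and the p-values reflect pool-to-pool spread only. Kdm1a, which checks the labels only in part because the probe set may not read the transgene, read 5.64 on C57BL/6, averaged 5.20 ± 0.12 in TG3 and was no different in the littermates at 5.20 ± 0.12 (each SD over 3 arrays). Late spermatid and sperm markers averaged 9.61 to 9.87 on the line's arrays and 10.72 on C57BL/6, over 9 genes. Among markers of other cells, leukocyte and spermatogonial lists averaged between 3.35 and 3.88 on all arrays, and the list for fibroblasts and smooth muscle ran from 5.21 to 6.74. The list for epididymal epithelium ran from 3.67 to 4.47, and Adam7, its brightest gene, read 7.14 to 9.80.

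RefSeq promoters (assembly GRCm38.p6) were read for 6 of the 10 genes. Pabpc6, Pabpc2, Pabpc1 and Paip2 had no window in the search, which left out any entry of these genes on 1 chromosome. Of the 6, 3 are printed because Papolb and Ybx2 fell in the line and Ybx1 is the widely expressed relative of Ybx2. Each is the 250 bases before the gene's start, read 5′ to 3′ on the gene's strand. Capitals mark the Y box, ATTGG or CCAAT on the other strand, the promoter element after which Y-box proteins were named. Papolb lies at chr5:142530077-142530326 (minus strand), the first of the annotated starts of Ybx2 at chr11:69935649-69935898 (plus strand) and Ybx1 at chr4:119294514-119294763 (minus strand).
Papolb: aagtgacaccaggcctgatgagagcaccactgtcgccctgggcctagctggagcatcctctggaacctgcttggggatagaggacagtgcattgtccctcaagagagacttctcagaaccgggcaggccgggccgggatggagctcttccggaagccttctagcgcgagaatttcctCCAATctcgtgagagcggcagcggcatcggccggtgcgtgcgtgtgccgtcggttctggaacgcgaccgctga
Ybx2: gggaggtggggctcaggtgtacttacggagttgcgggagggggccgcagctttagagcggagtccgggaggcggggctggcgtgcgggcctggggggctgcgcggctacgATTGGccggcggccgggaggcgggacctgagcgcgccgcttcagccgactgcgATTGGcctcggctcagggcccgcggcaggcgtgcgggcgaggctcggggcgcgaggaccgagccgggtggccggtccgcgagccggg
Ybx1: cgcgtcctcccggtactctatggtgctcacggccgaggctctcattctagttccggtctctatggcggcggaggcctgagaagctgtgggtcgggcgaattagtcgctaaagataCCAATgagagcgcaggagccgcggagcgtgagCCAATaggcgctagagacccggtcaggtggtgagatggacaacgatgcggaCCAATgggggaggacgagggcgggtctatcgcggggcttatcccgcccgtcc
The Papolb window held 1 Y box, 73 bases before the start. The Ybx2 window held 2, at 140 and 87 bases before the start, and the window of the other annotated Ybx2 start held 0. The Ybx1 window held 3, at 135, 103 and 52 bases. Of the other members with a window, Tarbp2 had 3 and Cpeb1 and Eif4g3 had 0. Of 32851 promoter windows of this length, 33.8% held at least 1. The cAMP response element TGACGTCA, to which the spermatid activator CREM binds, was in 0 of these windows and in 1.55% of all. Its core TGACG, which lies within the full element, or CGTCA on the other strand, was also in 0 of the Papolb, Ybx2 and Ybx1 windows, in 1 window each of Cpeb1 and Tarbp2, and in 17.8% of all. The Papolb, Ybx2 and Ybx1 windows were 62.0%, 77.2% and 62.8% G or C, where the median window had 52.4%. These matches describe the letters only.

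Sperm of the line was first set against the C57BL/6 pool, which was bred outside the litters. The poly(A) polymerase gene Papolb, the poly(A)-binding protein genes Pabpc6 and Pabpc2 and the Y-box gene Ybx2 fell in the line. Pabpc6, Pabpc2 and Ybx2 fell by 1.20 to 1.98 log2 units, and Papolb fell to readings under the lowest array median. Those 4 of 10 genes passed as lower and 0 passed as higher, where 2.85% of all 23493 probe sets passed as lower and 0.17% as higher. The C57BL/6 array lay above all 6 arrays of the line for 6 of the 10 genes, the 4 above with Pabpc1 and Ybx1, as it did for 14.3% of all probe sets. It lay below all 6 for 0 of the 10, against 18.2% of all. The median change of the 10 was -0.75, where all probe sets had a median of 0.037. The genes were named with earlier results of these data known, so these counts describe them and are no independent support.

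Lists of meiotic and later germ cells were also lower in the line. Round spermatid markers averaged 6.85 on C57BL/6 and 4.82 to 5.37 on the line's arrays, with 4 of 8 passing as lower, and spermatocyte markers averaged 5.59 against 3.78 to 4.35, with 4 of 8 lower. Late spermatid and sperm markers had 3 of 9 lower. Median changes of these 3 lists were -1.47, -1.89 and -0.42, and the genes within a list differed. Tnp1 read 12.40 on C57BL/6 and averaged 9.51 in the line, while Smcp was at 11.88 and 11.80 and Odf1 at 11.55 and 11.51. The spermatocyte gene Dmc1 was at 5.55 and 5.65. Sycp1, Sycp2 and Hormad1 of that list averaged 2.55, 3.39 and 3.00 in the line. These lie under the lowest array median of 3.52, so the sizes of their changes are uncertain. Spermatogonial markers averaged 3.63 on C57BL/6 and 3.45 to 3.84 in the line, with 0 of 6 passing and a median change of 0.060. Leydig cell markers averaged 4.07 on C57BL/6 and 2.37 to 2.68 in the line, with 3 of 5 lower. Cyp11a1 and Hsd3b1 read 3.20 and 1.94 on C57BL/6 and averaged 3.21 and 1.93 in the line. Every Leydig cell gene averaged under the lowest array median in the line, so the sizes of the falls are uncertain. Sertoli cell markers averaged 4.23 against 3.53 to 3.77. Of the 8 Sertoli cell genes 1 passed as lower, Cst9. It read 7.66 on C57BL/6 and averaged 2.94 in the line, also under the lowest array median. The median change of the Sertoli cell list was 0.040. In pooled RNA fewer cells of a type and less RNA per cell cannot be told apart, and the part of these cells in the fall of Papolb, Pabpc6, Pabpc2 and Ybx2 was not tested.

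**Figure D1:**
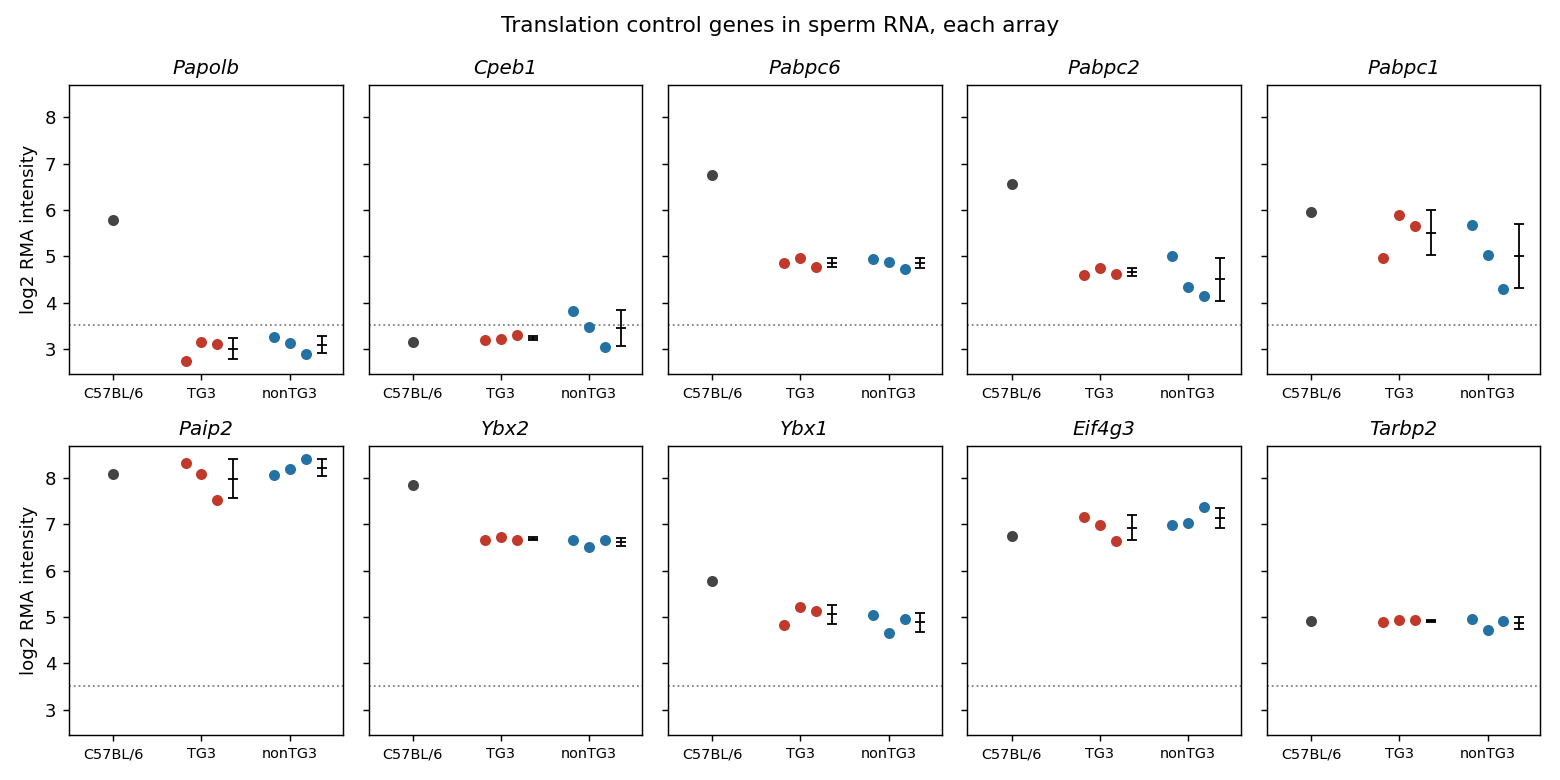
Each panel plots the log2 RMA intensity of 1 gene on the 7 arrays: C57BL/6 in grey, TG3 in red and nonTG3 in blue, with the mean and SD of the 3 arrays beside each group, and a dotted line at the lowest array median, 3.52. The C57BL/6 point stands above every other point in the panels of Papolb, Pabpc6, Pabpc2, Pabpc1, Ybx2 and Ybx1, by wide margins in the first 3 and in Ybx2, and within the spread in the panels of Paip2, Eif4g3, Tarbp2 and Cpeb1.

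Papolb encodes the testis poly(A) polymerase, a cytoplasmic enzyme that lengthens the tails of particular messenger RNAs in spermatids. It read 5.78 on C57BL/6. TG3 arrays read 2.74, 3.16 and 3.12, and nonTG3 arrays read 3.26, 3.12 and 2.89. All 6 arrays of the line were low, carriers and littermates overlapped, and all lay under the lowest array median. The readings of the line were lower than that of C57BL/6 (limma adjusted p = 0.00443). Whether readings of about 3 lie above background was not measured, so the size of the change is uncertain and no fold is given, and differences given for Papolb below are differences of readings.

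Cpeb1 encodes the protein that binds the cytoplasmic polyadenylation element and keeps its targets with short tails until they are needed. It read 3.16 on C57BL/6, 3.20, 3.23 and 3.29 in TG3 and 3.83, 3.47 and 3.05 in nonTG3. The C57BL/6 reading fell inside the range of the line, and nonTG3 replicate 1 alone read above the lowest array median of 3.52. The change was 0.19 (95% interval -0.47 to 0.85, limma adjusted p = 1), and at this dim signal a change may not have been detectable.

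Poly(A)-binding proteins coat the tail, protect the messenger and connect it with the cap. Pabpc1 is the widely expressed form, and Pabpc2 and Pabpc6 are related genes, Pabpc2 being a testis form. The 3 share sequence, and whether their probes cross-hybridise was not tested. Pabpc6 read 6.76 on C57BL/6, 4.85, 4.96 and 4.76 in TG3 and 4.94, 4.88 and 4.73 in nonTG3. The 6 arrays of the line lay within 0.23 log2 units of each other, and 13.7% of all probe sets varied less among them. Pabpc6 fell by 1.91 log2 units, or 3.75-fold (SE 0.13, 95% interval -2.23 to -1.58, limma adjusted p = 0.00341).

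Pabpc2 read 6.56 on C57BL/6, 4.59, 4.75 and 4.61 in TG3 and 5.01, 4.34 and 4.14 in nonTG3. TG3 arrays lay inside the range of the nonTG3 arrays, which spread over 0.87 log2 units. It fell by 1.98 log2 units, or 3.95-fold (SE 0.31, 95% interval -2.75 to -1.21, limma adjusted p = 0.0358). This call was kept without nonTG3 replicate 1 (limma adjusted p = 0.0148) and lost without any 1 of the other 5 arrays, at limma adjusted p of 0.103, 0.101 and 0.106 without TG3 replicates 1, 2 and 3 and 0.113 and 0.0646 without nonTG3 replicates 2 and 3. Its change stayed between -2.11 and -1.89 in these fits.

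Pabpc1 read 5.95 on C57BL/6, 4.97, 5.90 and 5.65 in TG3 and 5.67, 5.03 and 4.30 in nonTG3. It varied most of the 10 genes within the line (SD 0.60, n = 6), and 96.6% of all probe sets varied less. TG3 replicate 2 read nearly as high as C57BL/6, and nonTG3 replicate 3 was lowest. The change of -0.69 had a 95% interval from -2.05 to 0.67 (limma adjusted p = 0.863), so neither no change nor a fall as large as that of Pabpc6 lies outside it. Paip2, which binds poly(A)-binding protein and represses translation, read 8.09 on C57BL/6, 8.33, 8.09 and 7.51 in TG3 and 8.07, 8.19 and 8.41 in nonTG3. Its readings surrounded the C57BL/6 value, with a change of 0.011 (95% interval -0.75 to 0.77, limma adjusted p = 1).

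Y-box proteins bind messenger RNA and hold it from the ribosome, and Ybx2 is the germ cell form, abundant in round spermatids. Ybx2 read 7.85 on C57BL/6. TG3 arrays read 6.67, 6.73 and 6.67, and nonTG3 arrays read 6.67, 6.52 and 6.67. TG3 replicates 1 and 3 and nonTG3 replicates 1 and 3 had exactly equal values, which RMA's summary step can give, and only 8.19% of probe sets varied less in the line. Ybx2 fell by 1.20 log2 units, or 2.29-fold (SE 0.11, 95% interval -1.46 to -0.93, limma adjusted p = 0.00643). With such ties, only 3 distinct values in the line underlie the test.

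Ybx1, the form made in most cells, read 5.77 on C57BL/6, 4.83, 5.21 and 5.13 in TG3 and 5.04, 4.65 and 4.97 in nonTG3. All 6 arrays of the line lay below C57BL/6, the nearest being TG3 replicate 2. The change was -0.80 (SE 0.21, 95% interval -1.31 to -0.29), with an unadjusted p of 0.00916 and a limma adjusted p of 0.156, so it did not pass over all probe sets.

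Eif4g3 encodes a scaffold of the cap-binding complex that joins cap, poly(A)-binding protein and ribosome, and male mice need it to complete meiosis. It read 6.75 on C57BL/6, 7.17, 6.98 and 6.64 in TG3 and 6.99, 7.04 and 7.37 in nonTG3, so 5 of 6 arrays of the line were higher and 1 was lower. The change was 0.28 (95% interval -0.31 to 0.87, limma adjusted p = 0.896). Tarbp2 encodes a double-stranded RNA-binding protein, known as a partner of Dicer and as a binder of protamine messengers. It read 4.92 on C57BL/6, 4.89, 4.94 and 4.93 in TG3 and 4.96, 4.72 and 4.92 in nonTG3. Only nonTG3 replicate 2 stood apart, the change was -0.025 (95% interval -0.33 to 0.28, limma adjusted p = 1), and 12.3% of probe sets varied less in the line.

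**Figure D2:**
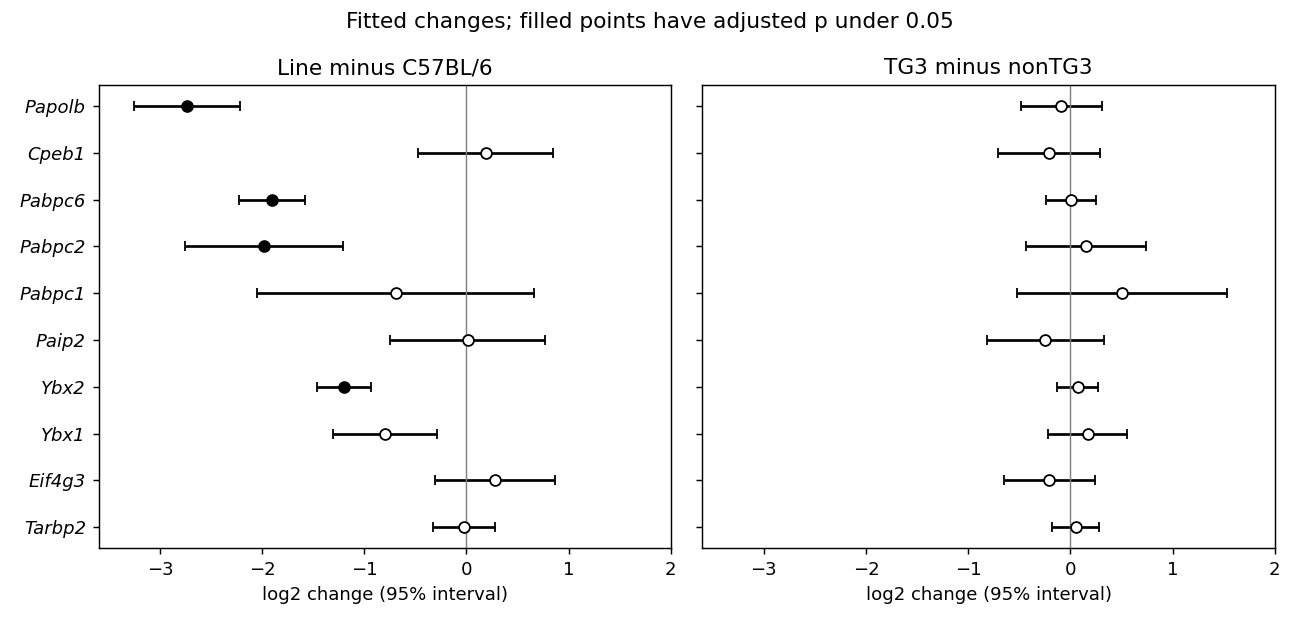
Points give the fitted log2 change of each gene with its 95% interval, for the line minus C57BL/6 on the left and TG3 minus nonTG3 on the right, and filled points have a limma adjusted p under 0.05. Papolb, Pabpc2, Pabpc6 and Ybx2 are filled at the left with intervals wholly under 0, and at the right all 10 intervals span 0.

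The comparison of carriers with their littermates asks how these RNAs differ with the transgene. TG3 and nonTG3 did not separate for any of the 10 genes: the arrays overlapped in all 10, where 4.12% of all probe sets did not overlap. limma passed 0 of 10, as it passed 0% of all probe sets, and an unadjusted p under 0.05 was found for 0 of 10 and for 559 of 23493. The largest difference was that of Pabpc1, 0.51 higher in TG3 (95% interval -0.52 to 1.53, limma adjusted p = 0.923). The intervals were narrowest for Ybx2, whose difference of 0.070 lay between -0.13 and 0.27, for Tarbp2 (0.055, from -0.17 to 0.28) and for Pabpc6 (0.0098, from -0.23 to 0.25). For Papolb the difference was -0.088, from -0.48 to 0.31. Intervals this wide leave room for modest differences in the other genes: Cpeb1 lay at -0.21 (-0.71 to 0.29), Pabpc2 at 0.15 (-0.43 to 0.74), Paip2 at -0.24 (-0.82 to 0.33), Ybx1 at 0.17 (-0.21 to 0.56) and Eif4g3 at -0.21 (-0.65 to 0.24).

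Set separately against the same C57BL/6 array, carriers and littermates gave like values, which share that array and are no independent repeats. In TG3 3 of the 10 genes passed as lower (2.41% of all probe sets, with 0.119% higher), namely Papolb at a difference of readings of -2.78, Pabpc6 at -1.90 and Ybx2 at -1.16 (limma adjusted p of 0.00616, 0.00498 and 0.01). Pabpc2 was at -1.91 in TG3 and did not pass (limma adjusted p = 0.0546). In nonTG3 4 passed (2.43% of all probe sets, with 0.0936% higher), Papolb at -2.69, Pabpc6 at -1.91, Pabpc2 at -2.06 and Ybx2 at -1.23 (limma adjusted p of 0.00669, 0.00495, 0.0435 and 0.00844). The nonTG3 call of Pabpc2 was kept without nonTG3 replicate 1 (limma adjusted p = 0.0197) and lost without any 1 of the other 5 arrays (limma adjusted p of 0.0988 to 0.163), and also when adjusted over all probe sets of the table (0.0503). The direct test of Pabpc2 between TG3 and nonTG3 is the one above, and it did not pass (limma adjusted p = 0.934). With the arrays of the 2 groups alone in the fit, 0 of the 10 passed in either comparison, at 2 residual degrees of freedom. Of all probe sets, those fits passed 0 for TG3 and 54 for nonTG3.

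Papolb, Pabpc6, Pabpc2 and Ybx2 can also be read against widely expressed relatives on the same array, which removes any scaling common to an array. This was possible for 4 pairs, the pair of Eif4g3 with Eif4g1 being left out because Eif4g1 had no probe set with that symbol alone. Only how the difference moves between arrays is read, since probe sets differ in brightness. Papolb minus Papola, the nuclear poly(A) polymerase, was 0.11 on C57BL/6 and between -2.52 and -2.04 on the 6 arrays of the line, all lower than on C57BL/6. The size of that shift is uncertain, as is that of Papolb itself. Papola itself read 5.67 on C57BL/6 and 5.35 ± 0.35 (SD, n = 6) in the line.

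Pabpc6 minus Pabpc1 was 0.82 on C57BL/6 and ran from -0.94 to 0.43 in the line, a mean shift of -1.21. Pabpc2 minus Pabpc1 was 0.61 on C57BL/6 and ran from -1.15 to -0.15, a mean shift of -1.29. Both shifts varied widely with the level of Pabpc1 and were smallest on nonTG3 replicate 3, where Pabpc1 was lowest. Ybx2 minus Ybx1 was 2.08 on C57BL/6 and between 1.52 and 1.87 in the line, a shift of -0.40. In each of the 4 pairs all 6 arrays of the line lay below C57BL/6. The first gene of every pair had already passed as lower against that array, and the pairs of Pabpc6 and Pabpc2 share Pabpc1. This count is therefore no further support, and no share over other gene pairs was computed. The two-sided exact permutation test of 6 against 1 gave p = 0.143 in each pair (adjusted p = 0.143 over 4 pairs), the smallest it can give. Between TG3 and nonTG3 the shifts were 0.049, -0.50, -0.36 and -0.10 in the order above, at two-sided exact permutation p of 0.7, 0.3, 0.3 and 0.5 (adjusted p of 0.7, 0.6, 0.6 and 0.667), where 3 against 3 cannot go below 0.1.

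**Figure D3:**
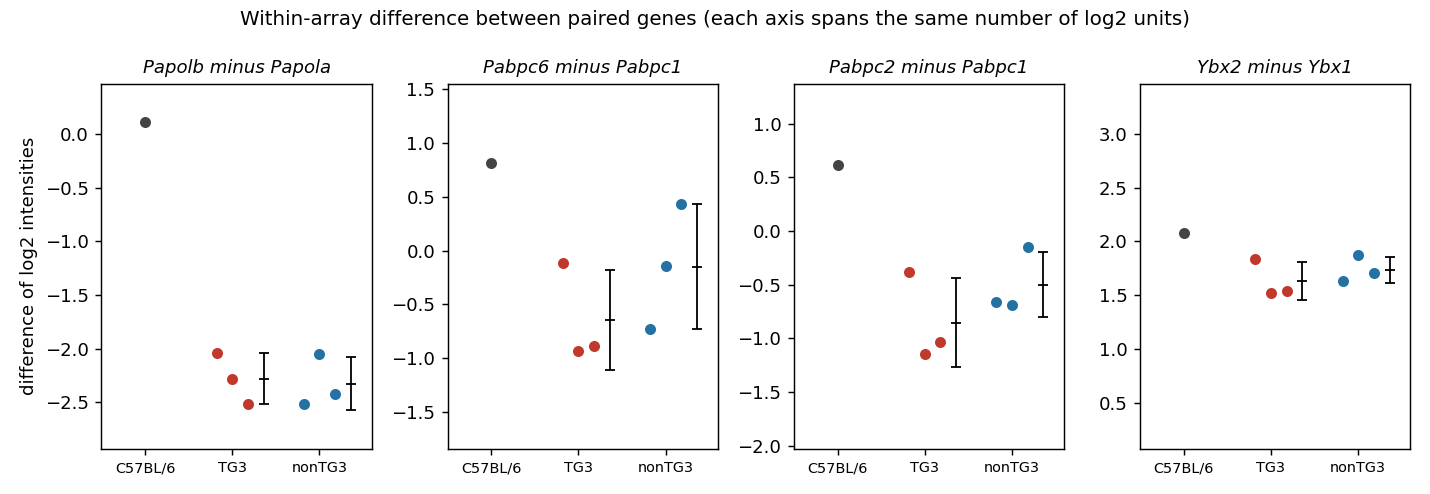
For each of 4 pairs the within-array difference of log2 intensities is plotted by group, C57BL/6 in grey, TG3 in red and nonTG3 in blue, with the mean and SD of 3 arrays beside each group. Every point of the line lies below the C57BL/6 point, with gaps of -0.56 to -0.21 log2 units for Ybx2 minus Ybx1, and the readings of Papolb that enter the first pair are under the lowest array median in the line.

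Within the line, mitochondrially encoded RNA split the arrays. For 6 of the 10 genes the 2 parts did not overlap, 4 in the same order as mitochondrial RNA and 2 in the opposite order. The mean of 8 mitochondrial genes was 11.25 on C57BL/6, 9.05, 11.40 and 11.51 in TG3 and 11.54, 10.20 and 9.18 in nonTG3. Pabpc1 read 5.65 to 5.90 on the 3 arrays of the line with mitochondrial means over 11 and 4.30 to 5.03 on the other 3. Eif4g3 read 6.64 to 6.99 on the former and 7.04 to 7.37 on the latter, and Paip2 7.51 to 8.09 and 8.19 to 8.41, so the order was the opposite. Pabpc2 read 4.61 to 5.01 on the former and 4.14 to 4.59 on the latter, Ybx1 5.04 to 5.21 and 4.65 to 4.97, and Tarbp2 4.93 to 4.96 and 4.72 to 4.92. The limit of 11 was set after the values were seen. The same arrays did not overlap for 16.9% of all probe sets, 7.22% being higher and 9.71% lower on the arrays with means over 11. The gaps of Pabpc2, Tarbp2 and Eif4g3 were narrow. Papolb, Pabpc6, Cpeb1 and Ybx2 overlapped between these arrays. The epididymal gene Adam7 read 9.14 to 9.80 on the 3 arrays with means over 11 and 7.14 to 8.59 on the other 3. Lcn5, Krt19 and Lcn9 of the same list overlapped. Markers of fibroblasts and smooth muscle were also highest, at 6.74 and 6.55, on TG3 replicate 1 and nonTG3 replicate 3, which had the least mitochondrial RNA. The part of mitochondrial RNA or of these other cells in these readings was not tested. Without those arrays 0 of 10 genes and 0 of all 23493 probe sets passed between the line and C57BL/6, with 2 residual degrees of freedom, while the changes of Papolb, Pabpc6, Pabpc2 and Ybx2 were -2.62, -1.87, -1.88 and -1.20 (limma adjusted p of 0.0653, 0.0778, 0.181 and 0.093).

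**Figure D4:**
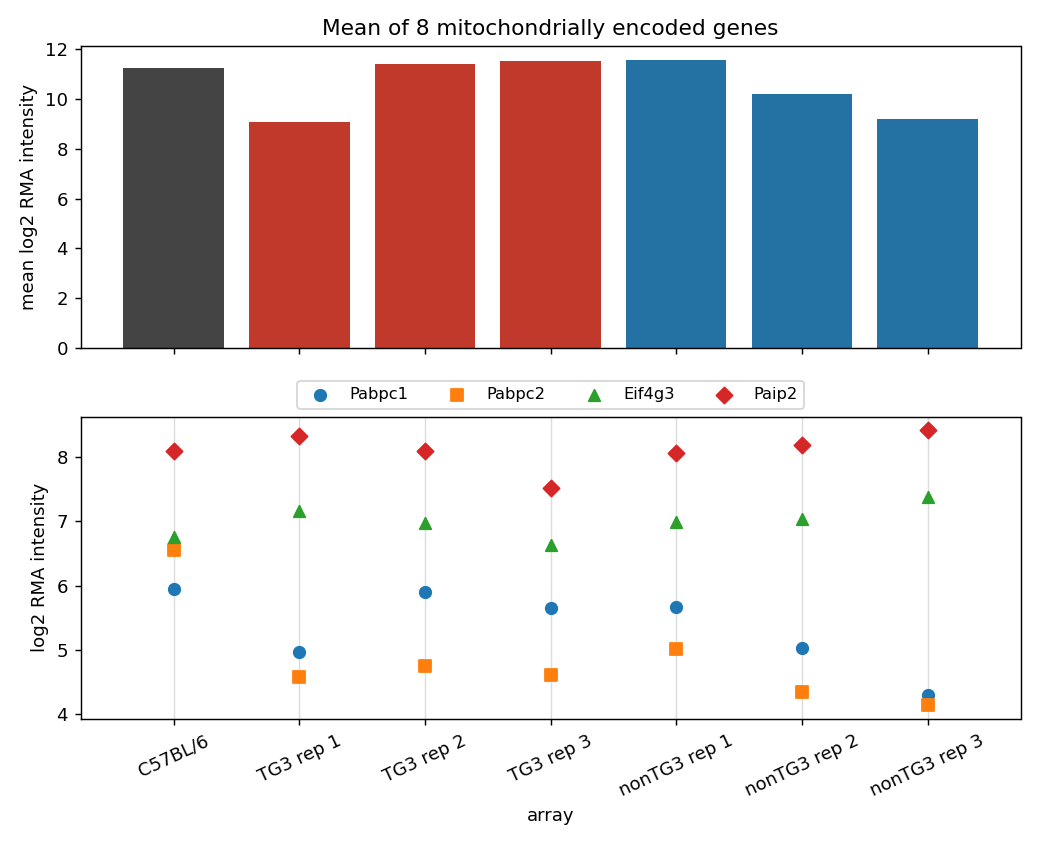
The upper bars give the mean log2 RMA intensity of 8 mitochondrially encoded genes on each of the 7 arrays, coloured by group. The lower points give Pabpc1, Pabpc2, Eif4g3 and Paip2 on the same arrays: Pabpc1 is lowest, at 4.30, on nonTG3 replicate 3, where Paip2 (8.41) and Eif4g3 (7.37) are highest.

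Across all 7 arrays, the genes nearest in pattern to a member were sought among 1397 probe sets whose mean was not below the median of all and whose SD was at least 0.5, for the 4 members that varied that much. Papolb was most like Ppp3r2, the testis form of the calcineurin regulatory subunit, with Usp1 and Nme8 next (Pearson's r of 0.998, 0.998 and 0.997 over 7 arrays). The mean was taken over all 7 arrays and the limit was 3.77. Ppp3r2 averaged 3.69 in the line and read 6.45 on C57BL/6, so it met the limit only through the C57BL/6 array. Pabpc6 was most like Pex3, Ccdc110 and Pmis2 (r of 0.998, 0.994 and 0.994), and Pabpc2 most like Pdcl2, Ghitm and Usp8 (0.994, 0.985 and 0.982). These 3 patterns share 1 high C57BL/6 array, which sets most of r. Papolb, Pabpc6 and Pabpc2 also met the SD limit only through that array, with SDs within the line of 0.19, 0.094 and 0.30. Their nearest genes are therefore a description and no independent support. Pabpc1 was most like Hsp90b1, a chaperone of the endoplasmic reticulum, then Ssr1 and Hdlbp (0.972, 0.948 and 0.943), and its variation lay within the line.

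Other genes of polyadenylation, messenger storage and translation control were read through a list of 78 genes, which moved little as a whole. Of the 78, 3 passed as lower and 0 as higher between the line and C57BL/6, which is 3.85% against the 2.85% of all probe sets and so near the background. Their median change was -0.0073, and 40 had negative and 38 positive changes. Those 3 were Ddx25, a testis RNA helicase needed by spermatids, Ybx3, a further Y-box protein, and Nudt21, a subunit of the factor that chooses cleavage sites. Ddx25 read 7.70 on C57BL/6 and 5.34 ± 0.31 (SD, n = 6) in the line, a change of -2.36 (limma adjusted p = 0.0249). Ybx3 read 8.59 and 6.74 ± 0.28 (SD, n = 6), a change of -1.85 (limma adjusted p = 0.0211). Nudt21 read 6.40 and 5.28 ± 0.20 (SD, n = 6), a change of -1.11 (limma adjusted p = 0.0185).

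Leaving out TG3 replicates 1, 2 or 3 turned the count of 3 into 1, 0 or 1, and leaving out nonTG3 replicates 1, 2 or 3 turned it into 2, 1 or 0. In those fits the limma adjusted p reached 0.0961 for Ddx25, 0.0709 for Ybx3 and 0.0618 for Nudt21. Between TG3 and nonTG3 0 of the 78 passed in limma, and 2 had an unadjusted p under 0.05.

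**Figure D5:**
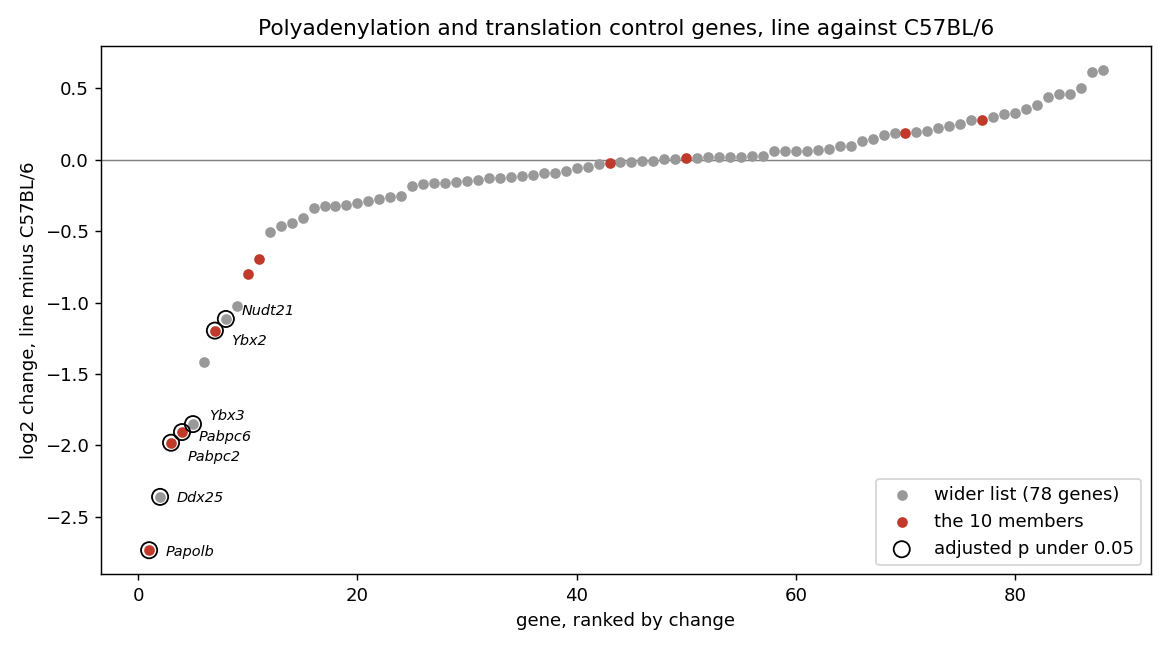
All 88 genes, the 10 members in red and the 78 others of polyadenylation and translation control in grey, are ranked along the x axis by their log2 change between the line and C57BL/6 on the y axis, and circles mark a limma adjusted p under 0.05. The 7 circled genes are among the 8 lowest, from Papolb, whose size is uncertain, to Nudt21 at -1.11, and the changes of most others lie near 0.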

How the data were processed

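RNA of pooled mouse sperm was measured on 7 arrays. The values are log2 intensities that the authors made with RMA, per the submitters' processing notes, which name R 3.1.0, oligo, RMA and limma. Neither a probe filter nor a genome build nor scan batches are stated there. Gene names come from the platform annotation: 23493 had 1 gene symbol and were tested, 1801 had several and 8310 none. Entrez identifiers matched 10 of the 10 members to RefSeq.

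limma 3.58.1 in R 4.3.3 fitted group means over the 7 arrays in 1 model, with eBayes moderation (4 residual and 1.65 prior degrees of freedom). Benjamini-Hochberg adjustment ran over all tested probe sets. The lone C57BL/6 array is assumed to vary like the others. Pairs of genes were compared with exact permutation tests over arrays. Alternatives covered scaling, prior, filters, arrays left out and the replicate block. The members and lists were chosen with earlier results of these data known. Named genes were the members, their partners in the pairs, up to 6 passing genes of the wider list per direction and 3 nearest patterns per member. Of 92 symbols listed for it, older names included, 78 genes were found. The number of arrays limits the precision. Figures were drawn with matplotlib 3.10.9.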

Additional observations from a re-analysis of the deposited data

How the results depend on the processing

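The counts of members passing kept within 1.5 times of their values, at 3 or 4 in each comparison with C57BL/6 and 0 between TG3 and nonTG3, under median centring, repeated quantile normalization, an eBayes trend, the whole table without regard to symbols, a filter on dim probe sets and each array of the line left out. The exceptions were the fits without both arrays of lowest mitochondrial RNA, where the count was 0 in all comparisons and 0 for the wider list, and the fits on only the groups compared, where it was 0 for TG3 and 0 for nonTG3 against C57BL/6. Both had fewer arrays and 2 residual degrees of freedom. In the other fits the count over all probe sets ran from 350 to 811 for the line (710 as reported), 272 to 690 for TG3 (595) and 228 to 692 for nonTG3 (594) against C57BL/6, and it was 0 in all comparisons without both arrays of lowest mitochondrial RNA. The line against C57BL/6 uses every array, so it has no such fit. Leaving out 1 array gave 0 to 2 passing genes of the wider list. Papolb, Pabpc6 and Ybx2 passed between the line and C57BL/6 in all 6 fits that left out 1 array, with limma adjusted p up to 0.0266, 0.0201 and 0.0267. Pabpc2 between TG3 and C57BL/6 passed after median centring (limma adjusted p = 0.0369), with the filter on dim probe sets (0.0393), without nonTG3 replicate 1 (0.0226) and after repeated quantile normalization (0.0499), where Ybx2 did not (0.0569). The filter on dim probe sets removed Papolb and Cpeb1.

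Signs that turned belonged to changes near 0. After median centring Paip2 was -0.032 in the line and Tarbp2 -0.046 in TG3 against C57BL/6. After repeated quantile normalization Tarbp2 was 0.048 in the line and 0.019 in nonTG3, and Paip2 was 0.12 in TG3. Without both arrays of lowest mitochondrial RNA Paip2 was -0.12 in the line and Pabpc6 -0.049 between TG3 and nonTG3. The cause was not tested. Leaving out 1 array gave -0.077 to 0.13 for Paip2 and -0.049 to 0.011 for Tarbp2 in the line. Between TG3 and nonTG3 the ranges were -0.19 to 0.044 for Papolb, -0.052 to 0.057 for Pabpc6, -0.026 to 0.41 for Pabpc2 and -0.019 to 0.10 for Tarbp2. Against C57BL/6 they were -0.0067 to 0.017 for Tarbp2 and -0.29 to 0.12 for Paip2 in TG3, and -0.10 to 0.021 for Tarbp2 in nonTG3.

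With the replicate number as a block, 4 members passed between the line and C57BL/6 (735 of all probe sets), 0 between TG3 and nonTG3 (0 of all), 3 between TG3 and C57BL/6 (611 of all) and 4 between nonTG3 and C57BL/6 (607 of all), and 3 genes of the wider list passed. Deviations of same-numbered arrays from their group means correlated at -0.45, 0.016 and -0.40. The highest correlation, 0.55, was that of TG3 replicate 1 with nonTG3 replicate 3, the arrays of lowest mitochondrial RNA. Deviations cancel out within a group of 3, so these values cannot decide whether the numbers pair the arrays. Whether dim readings lie above background was not measured.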
